A study of Rattus norvegicus with 42 samples.

Results

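Whole-lung RNA of 9 male Fischer 344 rats was compared by diet 3 months after an exposure to air alone. They were chosen by their labels, as the columns for a high-fat diet in air (5 rats) and a regular diet in air (4 rats) in the deposited table for 3 months, out of 42 rats in 8 groups in the series. The regular diet supplied 18% of its energy as fat and the high-fat diet 60%. Each rat was F344/DuCrl, bought at 3 months of age, kept 3 to a cage, fed its diet for 2 weeks before a whole-body inhalation exposure of 6 hours a day on 5 days, and kept on that diet until the lung was taken. The study asks what a high-fat diet does in rats that inhale crystalline silica, and the air rats give the diet difference without silica. For comparison there were 5 rats on each diet exposed to 15 mg per cubic metre of silica and sampled at 3 months, and 6 rats on each diet in air sampled at 9 months, none of which is among the 9. A piece of lung was used, so each value is a sum over the cell types in that piece. The labels give neither the hour at which lungs were taken nor which rats shared a cage.

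The lung is exposed both to inhaled air and to the whole cardiac output, and its alveolar macrophages take up and break down surfactant, which is mostly lipid. Dietary fatty acids are ligands of nuclear receptors that switch on fatty acid oxidation, and cells match sterol synthesis and uptake to their sterol supply through the SREBP transcription factors. The aryl hydrocarbon receptor senses planar compounds from diet and air, and the circadian clock, a loop of activators and the repressors they induce, runs in most lung cells and responds to feeding.

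Read counts per rat ran from 5143424 to 6441238 on the regular diet and from 5499787 to 7395252 on the high-fat diet. Levels are given in CPM, read counts relative to the library size after scaling by the trimmed mean of M values (TMM). Lung markers were present throughout: the 8 alveolar type 2 markers together made 18278 to 21520 CPM on the regular diet and 17706 to 18983 CPM on the high-fat diet. The fat cell genes Adipoq, Lep and Plin1 had at most 4 counts in any of the 9 rats, and Plin1 had 0 in all. Cidec, the remaining fat cell marker checked, was found in every rat, at 5 to 13 counts. Together these 4 markers made 1.53 to 1.72 CPM on the regular diet and 1.34 to 2.44 CPM on the high-fat diet. Heart muscle markers varied within both diets, from 41.2 to 175 CPM and from 3.57 to 255 CPM. The share of counts on the ribosomal RNA genes Rnr1 and Rnr2 was 1.26% ± 0.315 (SD, n = 4) on the regular diet and 0.957% ± 0.266 (SD, n = 5) on the high-fat diet, a difference of -0.306 percentage points (exact 2-sided permutation test over all splits, p = 0.175, adjusted over 2 values 0.31; smallest possible p 0.0159). Total counts gave p = 0.31 in the same exact test. Because the ribosomal RNA share leaned by diet, calls are also given with it as a covariate, for several lists only in the section on processing.

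On the high-fat diet, 251 genes were higher and 198 lower out of 15234 tested (edgeR's quasi-likelihood test, adjusted p below 0.05, here "called"). These are 2.95% of the genes tested in either direction, 1.65% higher and 1.3% lower, which is the background for every count of list members below. Most differences were small: 22 genes were called and at least 2-fold higher, and 23 called and at least 2-fold lower. In 400 of the 449 called genes no rat of one diet reached the range of the other, while 5.32% of all genes tested lay apart as higher and 4.64% as lower. Of the called genes, 42 of the 198 lower ones and 13 of the 251 higher ones carry only a placeholder symbol.

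The number of calls depended strongly on single rats. Leaving out regular-diet rat 4 left 27 genes higher and 36 lower. Leaving out regular-diet rat 3 left 56 and 73, and leaving out regular-diet rat 2 left 74 and 60. Of the high-fat rats, leaving out number 3 left 59 and 71, number 4 left 101 and 101, and number 1 left 251 in all. When ribosomal RNA share was added to the model 92 genes were called, 90 of them among the 449, and 42.4% of the 92 were higher against 55.9% of the 449. There were 45 genes (0.295% of those tested) called with all rats and in each of the 9 fits without 1 air rat, 22 higher and 23 lower. Beside each called gene named below, the number of those 9 fits that called it is given where it is under 9.

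**Figure D1:**
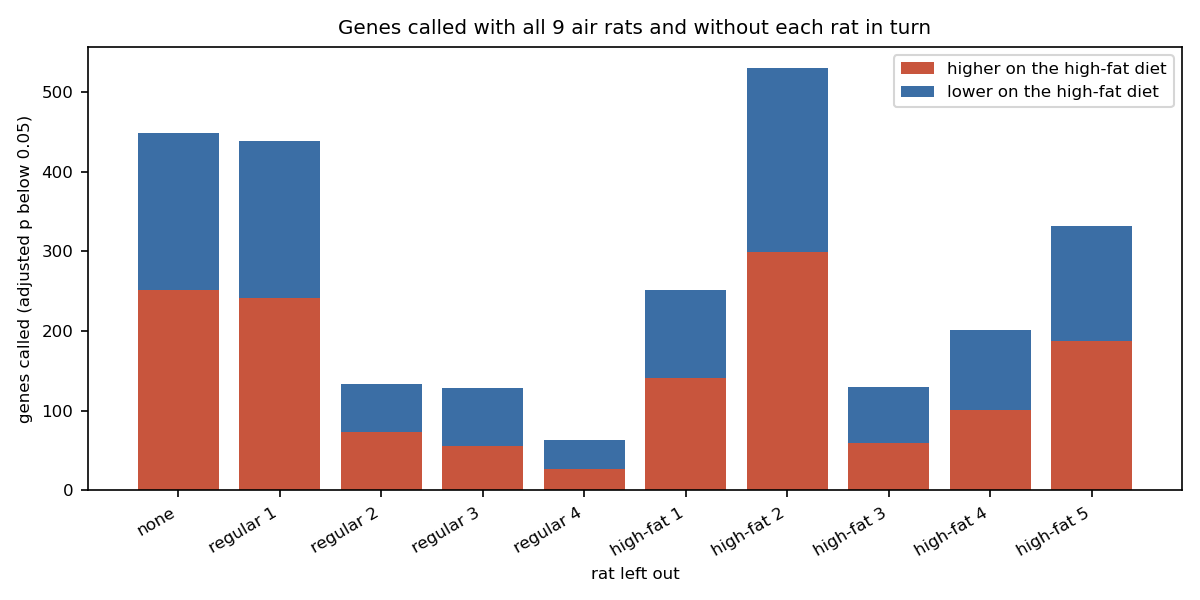
Number of genes called (y axis; adjusted p below 0.05) with all 9 air rats and without each air rat in turn (x axis), split into genes higher (red) and lower (blue) on the high-fat diet. The count is 449 with all rats and lowest, at 63, without regular-diet rat 4.

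The gene that differed most by size was Cyp1a1, the cytochrome P450 that the aryl hydrocarbon receptor induces and a standard readout of that receptor. It was at 0.773, 0.934, 0.172 and 0.341 CPM in the regular-diet rats and at 38.1, 47.1, 50.5, 86.8 and 45.03 CPM in the high-fat rats. Every high-fat rat was above 38 CPM and every regular-diet rat below 1 CPM, and high-fat rat 4 stood above the other 4. The fitted fold difference was 92.7 (log2 fold change 6.53 ± 0.49, adjusted p = 6.6e-08), on 13 counts in the 4 regular-diet rats and 1686 counts in the 5 high-fat rats. Of the 9 tested genes in the list of the receptor, its partners and its targets, Cyp1a1 was the only one called (1 higher, 0 lower, list median log2 fold change 0.231, from 0.132 to 0.336 over the 9 fits, against -0.00041 over all genes). Ahrr, the receptor's repressor and itself a target gene, was at 1.55, 0.934, 0.172 and 1.02 CPM and 1.36, 1.30, 2.004, 3.50 and 1.51 CPM (log2 fold change 1.08 ± 0.41, adjusted p = 0.13). Cyp1b1, another target, gave 0.37 ± 0.25, adjusted p = 0.4, and Tiparp, which the receptor also induces, -0.06 ± 0.09, adjusted p = 0.74. Ahrr, Cyp1b1 and Tiparp were picked after their values were seen, to show the rest of the list. Cyp1a1 kept its call with the ribosomal RNA covariate (6.45, adjusted p = 1.4e-06).

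The called clock genes belonged to the repressors and outputs. Of 15 tested repressors and outputs 4 were called higher and 0 lower (median 0.126), and of 6 activators none was called (1 at an unadjusted p below 0.05, median -0.0532, reaching -0.213 without high-fat rat 1). Over the 9 fits 2 to 4 repressors and outputs were called higher (2 without regular-diet rat 2, regular-diet rat 4 or high-fat rat 3) and 0 to 1 lower (1 without regular-diet rat 3), with medians of 0.0876 to 0.212. Nr1d1, which encodes the heme-sensing repressor REV-ERB alpha, was at 14.9, 7.16, 8.24 and 7.67 CPM on the regular diet and 39.6, 52.2, 47.01, 37.4 and 36.7 CPM on the high-fat diet. All 5 high-fat rats lay far above the 4 others, and regular-diet rat 1 was the highest of its own group. For Nr1d1 the log2 fold change was 2.186 ± 0.26 (adjusted p = 0.00017). Its paralog Nr1d2 was at 57.9, 44.8, 53.1 and 51.6 CPM and 109.02, 116, 118.4, 84.3 and 101 CPM, again without overlap. For Nr1d2 the log2 fold change was 1.03 ± 0.17 (adjusted p = 0.0055). Per3, a period protein of the repressor limb, was at 19.9, 21.9, 26.3 and 27.6 CPM and 56.1, 50.4, 56.7, 36.99 and 45.7 CPM (log2 fold change 1.03 ± 0.24, adjusted p = 0.027, called in 3 of 9 fits, adjusted p up to 0.076). Tef, an output factor that binds D-box sites, was at 93.3, 83.6, 93.4 and 78.2 CPM and 136, 120.2, 144, 120.2 and 131 CPM (log2 fold change 0.58 ± 0.13, adjusted p = 0.022, 6 of 9 fits). The output gene Dbp leaned the same way with overlapping rats, 4.64, 7.32, 6.70 and 4.09 CPM and 10.9, 15.9, 13.5, 7.31 and 7.87 CPM (0.94 ± 0.47, adjusted p = 0.26).

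Both Arntl, the activator BMAL1, and Cry1, a repressor, were lower in every high-fat rat than in any regular-diet rat, but neither passed the test in the fit of all rats of 3 months. Arntl was at 77.1, 87.5, 79.8 and 85.0 CPM and 60.7, 57.8, 55.2, 69.7 and 66.1 CPM (log2 fold change -0.41 ± 0.16, adjusted p = 0.15). Cry1, named after its values were seen, was at 16.03, 17.3, 17.3 and 17.2 CPM and 11.7, 12.2, 11.5, 14.5 and 10.5 CPM (log2 fold change -0.49 ± 0.16, adjusted p = 0.09). Npas2, an activator that can stand in for CLOCK, gave -0.25 ± 0.13, adjusted p = 0.25. In a fit of the 2 air groups alone both Arntl and Cry1 were called (edgeR, adjusted p = 0.01 and 0.022), and in a fit of all 8 groups Cry1 was (0.048). With the ribosomal RNA covariate Nr1d1, Nr1d2 and Per3 remained called (adjusted p = 0.00041, 0.0058 and 0.049) and Tef did not (0.064).

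The promoters of the 4 called clock genes are shown because clock activators act on E-boxes and REV-ERB and ROR proteins on the core hexamer of nuclear receptors. Each window covers 250 bases before to 50 after a RefSeq start of build GRCr8, read 5′ to 3′ on the gene's strand, with capitals marking CACGTG (E-box), GCGTG (xenobiotic response element core) or AGGTCA (nuclear receptor hexamer) on either strand. The windows are chr10:84229405-84229704 (minus strand) for Nr1d1, chr15:9954784-9955083 (plus) for Nr1d2, chr5:166777751-166778050 (minus) for Per3 and chr7:115206577-115206876 (plus) for Tef.
Nr1d1: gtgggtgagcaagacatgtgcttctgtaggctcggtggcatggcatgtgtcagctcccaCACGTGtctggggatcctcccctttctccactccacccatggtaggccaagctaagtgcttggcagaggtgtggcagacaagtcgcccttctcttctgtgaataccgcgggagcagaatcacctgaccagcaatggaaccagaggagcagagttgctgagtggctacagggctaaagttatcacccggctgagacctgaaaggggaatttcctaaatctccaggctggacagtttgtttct
Nr1d2: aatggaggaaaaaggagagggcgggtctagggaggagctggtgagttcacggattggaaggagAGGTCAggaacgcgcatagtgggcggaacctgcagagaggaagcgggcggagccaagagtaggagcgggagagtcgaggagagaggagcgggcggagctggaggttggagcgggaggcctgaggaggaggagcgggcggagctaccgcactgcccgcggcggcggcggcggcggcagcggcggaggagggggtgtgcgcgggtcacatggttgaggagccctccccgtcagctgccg
Per3: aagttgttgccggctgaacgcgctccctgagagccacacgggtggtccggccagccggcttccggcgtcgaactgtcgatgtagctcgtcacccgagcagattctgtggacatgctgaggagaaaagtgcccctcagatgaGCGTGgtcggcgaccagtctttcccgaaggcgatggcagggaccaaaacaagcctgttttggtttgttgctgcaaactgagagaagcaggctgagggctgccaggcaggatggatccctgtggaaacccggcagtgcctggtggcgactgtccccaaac
Tef: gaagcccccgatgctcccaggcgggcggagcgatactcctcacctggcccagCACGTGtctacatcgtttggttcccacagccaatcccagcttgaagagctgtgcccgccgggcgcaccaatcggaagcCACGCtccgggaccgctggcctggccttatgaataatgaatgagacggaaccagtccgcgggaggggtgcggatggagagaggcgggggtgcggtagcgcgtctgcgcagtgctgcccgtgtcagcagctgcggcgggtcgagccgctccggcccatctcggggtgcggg
Nr1d1 holds an E-box at -191 from this start, and a further Nr1d1 window in the table, not printed, holds GCGTG at -96 and no E-box. Tef holds an E-box at -198 and the reverse complement of GCGTG at -120, Per3 holds GCGTG at -109, and Nr1d2 holds AGGTCA at -187. An E-box was found in 6.42% of all 33469 windows, in 8.52% of the 11712 windows of tested genes and in 5 of the 16 windows of the clock repressors and outputs. Among the windows of called genes the share was 9.41% of the 202 windows of those higher and 8.16% of the 147 windows of those lower. For GCGTG the shares were 29.7% of all windows, 46.3% of the windows of tested genes, 52% of the windows of genes called higher and 44.2% of those of genes called lower, and for AGGTCA 16.2%, 12.6%, 8.91% and 17.7%. These are matches of letters, not sites shown to be bound.

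**Figure D2:**
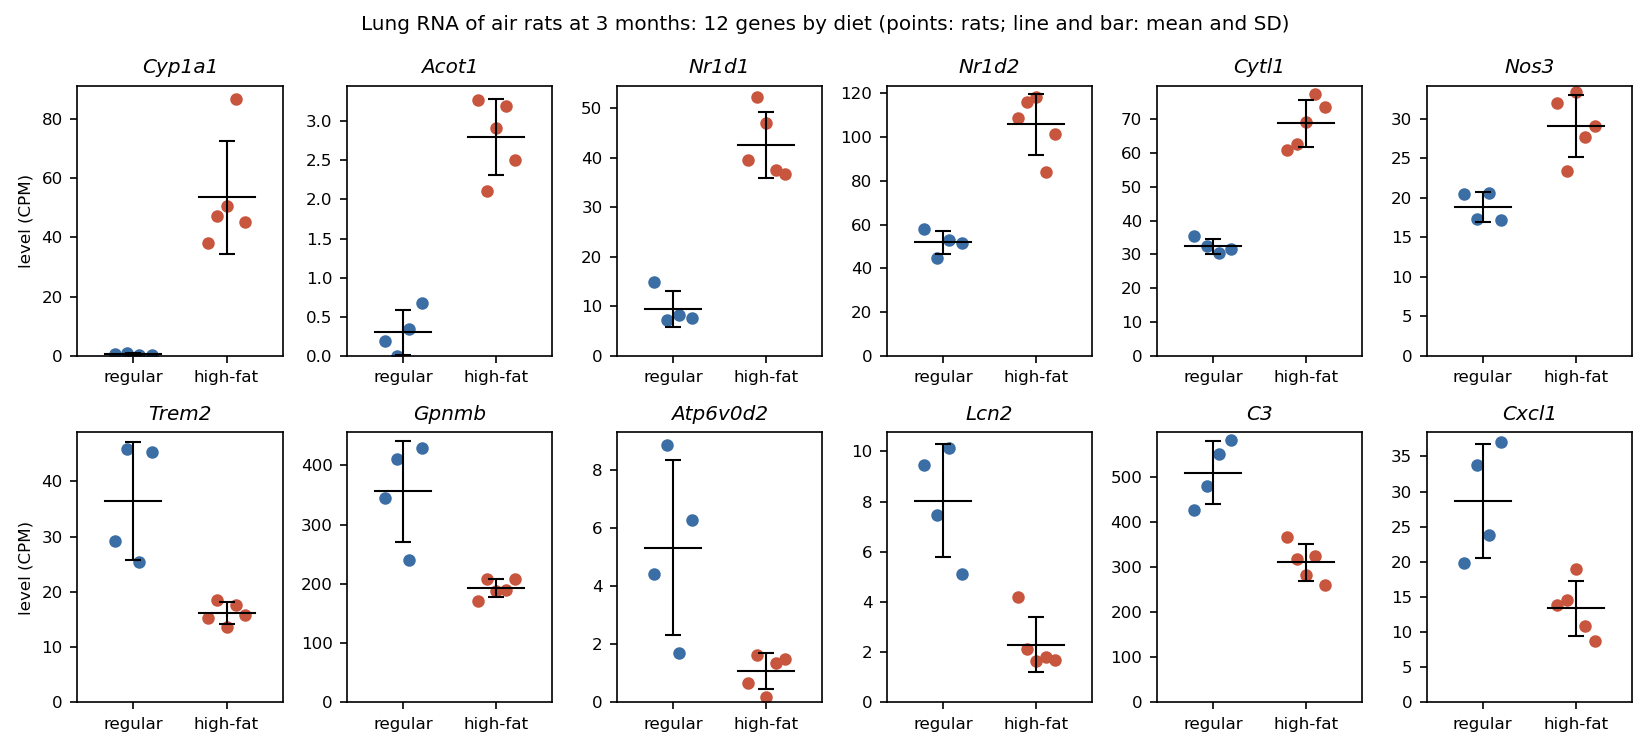
Level in CPM (y axes, each from 0) of 12 genes in each air rat at 3 months, by diet (x axis); points are rats, the line is the mean and the bar the SD (n = 4 regular, n = 5 high-fat). In all 12 panels the rats of the 2 diets do not overlap, with Cyp1a1 near 0 on the regular diet and above 38 CPM on the high-fat diet.

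Fatty acid oxidation showed 2 calls among 30 tested genes, both higher, with a list median of 0.0101. Acot1, a cytosolic acyl-CoA thioesterase that is a classic target of the fatty acid receptor PPAR alpha, was at 0.193, 0, 0.343 and 0.682 CPM on the regular diet and 3.27, 2.11, 2.92, 3.196 and 2.51 CPM on the high-fat diet. No rat of one diet reached the other, although all levels were low, with 7 counts in the 4 regular-diet rats and 89 in the 5 high-fat rats. For Acot1 the log2 fold change was 3.15 ± 0.49 (adjusted p = 0.0031). Cpt1a, the enzyme that commits fatty acids to mitochondrial oxidation, was at 85.4, 70.04, 81.7 and 77.9 CPM and 102, 97.8, 111.2, 98.0 and 99.3 CPM, a small rise with separate groups. For Cpt1a the log2 fold change was 0.37 ± 0.07 (adjusted p = 0.0083). Other PPAR targets gave no call: Pdk4, which restrains glucose oxidation, gave 0.22 ± 0.20, adjusted p = 0.56, and Angptl4, an inhibitor of lipoprotein lipase, 0.31 ± 0.19, adjusted p = 0.37. Lipe, the hormone-sensitive lipase that releases stored fatty acids, was at 85.2, 88.6, 87.2 and 78.1 CPM and 129.4, 91.5, 109.7, 123.6 and 110.3 CPM (log2 fold change 0.42 ± 0.08, adjusted p = 0.012, 8 of 9 fits). It was named from the fat cell list, not the oxidation list. Of 8 tested fat cell genes 1 was called higher (Lipe) and 1 lower (Fabp4, described below). In the insulin and glucose list 1 of 18 tested genes was called, Foxo1, a transcription factor that insulin restrains (log2 fold change 0.43 ± 0.11, adjusted p = 0.041, 2 of 9 fits).

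Genes of sterol synthesis and uptake leaned upwards by small amounts. Of 22 tested, 4 were called higher and 1 lower, 20 had a positive log2 fold change, and the median was 0.254. Srebf2, the transcription factor that drives this list, was at 200.5, 189, 198 and 195 CPM and 235, 232, 244, 256 and 223 CPM. For Srebf2 the log2 fold change was 0.28 ± 0.06 (adjusted p = 0.017, 7 of 9 fits). Stard4, a cytosolic sterol carrier, was at 50.99, 44.8, 45.7 and 44.1 CPM and 61.2, 54.4, 79.1, 56.6 and 64.6 CPM. For Stard4 the log2 fold change was 0.44 ± 0.10 (adjusted p = 0.023, 5 of 9 fits). The gene that fell was Pmvk, phosphomevalonate kinase (log2 fold change -0.35 ± 0.10, adjusted p = 0.048, 1 of 9 fits). Over the 9 fits between 1 and 5 members were called higher, the median stayed between 0.208 and 0.272, and with the ribosomal RNA covariate 2 were called higher.

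Fatty acid synthesis genes had 2 calls higher among 17 tested and 0 lower (15 positive, median 0.218). Srebf1, the transcription factor of this pathway, was at 102, 123, 82.4 and 94.6 CPM and 117.04, 151, 157, 155 and 134.4 CPM, overlapping in 1 high-fat rat. For Srebf1 the log2 fold change was 0.50 ± 0.11 (adjusted p = 0.023, 5 of 9 fits). Elovl5, which lengthens polyunsaturated fatty acids, was at 216, 199, 214 and 202 CPM and 229.6, 253, 265, 247 and 246 CPM, with no overlap. For Elovl5 the log2 fold change was 0.26 ± 0.06 (adjusted p = 0.019, 6 of 9 fits). Scd, the desaturase that makes oleic acid, gave 0.35 ± 0.10, adjusted p = 0.065, short of the threshold here but past it with DESeq2 (0.025), limma voom (0.025) and other sets of groups (0.024 and 0.026). Without 1 rat at a time the list had between 0 and 2 calls, and with the ribosomal RNA covariate 0. In the sterol efflux list the only call among 13 tested genes was Pltp, the phospholipid transfer protein that remodels high-density lipoprotein, at 148, 141.2, 136 and 132 CPM and 175, 159.7, 192, 187 and 181 CPM (log2 fold change 0.36 ± 0.06, adjusted p = 0.0072).

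Several genes of lipid-handling macrophages fell on the high-fat diet. In that list 0 of 22 tested genes were called higher and 6 lower, 20 had a negative log2 fold change, and the median was -0.312. Trem2, a lipid-sensing receptor of macrophages, was at 29.2, 45.9, 25.4 and 45.3 CPM on the regular diet and 15.2, 18.5, 13.7, 17.7 and 15.7 CPM on the high-fat diet. The highest high-fat rat stayed below the lowest regular-diet rat, and the regular-diet rats fell into a lower pair (rats 1 and 3) and a higher pair (rats 2 and 4), while the high-fat rats lay close together. For Trem2 the log2 fold change was -1.18 ± 0.17 (adjusted p = 0.0014). Gpnmb, a lysosomal glycoprotein of lipid-loaded macrophages, showed 344, 410.4, 240.2 and 429.8 CPM and 171, 207, 188, 190.4 and 208 CPM. For Gpnmb the log2 fold change was -0.89 ± 0.14 (adjusted p = 0.0054). Atp6v0d2, the macrophage and osteoclast form of a proton pump subunit, was at 4.44, 8.87, 1.72 and 6.31 CPM and 0.680, 1.62, 0.182, 1.37 and 1.51 CPM, separate but with a wide spread among regular-diet rats. For Atp6v0d2 the log2 fold change was -2.31 ± 0.43 (adjusted p = 0.01). Regular-diet rat 3 was the lowest of its group for all of Trem2, Gpnmb and Atp6v0d2.

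The remaining called members of that list were Lgals3, Msr1 and Mmp12. Lgals3, the lectin galectin-3, was at 196, 218, 160.2 and 233 CPM and 125.6, 145, 130.1, 132 and 144 CPM (log2 fold change -0.58 ± 0.11, adjusted p = 0.012, 8 of 9 fits). Msr1, a scavenger receptor for modified lipoproteins, was at 63.5, 70.04, 46.7 and 62.9 CPM and 33.1, 48.1, 37.5, 45.8 and 41.8 CPM (log2 fold change -0.56 ± 0.11, adjusted p = 0.013, 7 of 9 fits), and Mmp12, the macrophage elastase, at 5.02, 7.004, 2.58 and 8.69 CPM and 2.59, 2.60, 1.46, 2.59 and 1.51 CPM (log2 fold change -1.42 ± 0.30, adjusted p = 0.017, 7 of 9 fits). In both, regular-diet rat 3 lay inside the high-fat range, and for Mmp12 regular-diet rat 3 was below high-fat rats 1, 2 and 4. Between 3 and 6 of the list were called lower in the 9 fits (3 without regular-diet rat 4), the median ran from -0.394 to -0.236, and with the ribosomal RNA covariate 6 were lower. The summed level of the list overlapped between diets, at 3998 to 5084 CPM on the regular diet and 3722 to 4106 CPM on the high-fat diet. In the separate list of lysosomal hydrolases and proton pump subunits, 2 of 26 tested genes were called lower (Atp6v0d2 and Ctss) and 0 higher, 8 were positive, and the median was -0.0784 (1 call with the ribosomal RNA covariate).

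Of 14 tested alveolar macrophage markers, 3 were called lower and 0 higher (median -0.233): Fabp4, Itgax and Plet1. Over the 9 fits 0 to 3 were called lower (0 without regular-diet rat 4 and 1 without regular-diet rat 2), with medians of -0.325 to -0.193, and with the ribosomal RNA covariate 2. Fabp4, a fatty acid binding protein of alveolar macrophages that fat cells and capillaries also make, was at 22.02, 27.7, 18.5 and 19.9 CPM and 9.53, 10.2, 10.4, 13.2 and 10.04 CPM (log2 fold change -1.05 ± 0.23, adjusted p = 0.019, 7 of 9 fits). Itgax, the integrin CD11c, was at 41.3, 44.7, 43.1 and 44.8 CPM and 28.0, 40.1, 26.1, 31.7 and 28.6 CPM (log2 fold change -0.49 ± 0.12, adjusted p = 0.027, 4 of 9 fits), and Plet1, a surface protein of these cells, gave -0.62 ± 0.12, adjusted p = 0.012 (8 of 9 fits). The 5 defining markers summed to 337 to 427 CPM on the regular diet and to 272 to 324 CPM on the high-fat diet, without overlap. Most of that sum was Mrc1, a mannose receptor that other macrophages also carry, with 13838 counts over the 9 rats against 1990 for Itgax, 1558 for Cd68 and 854 for Fabp4, and Marco had at most 1 count in any rat. The whole list, 17 genes in the table, summed to 910.0 to 1114 CPM on the regular diet and 801 to 916 CPM on the high-fat diet, which overlap. In whole lung, fewer macrophages and less RNA of these genes per macrophage cannot be told apart. The general macrophage and monocyte list had 1 call lower (C1qa) and 0 higher among 14 tested, with a median of -0.102 (-0.165 without high-fat rat 2, -0.0622 without high-fat rat 1) and a summed level of 8907 to 11505 CPM on the regular diet and 8595 to 9052 CPM on the high-fat diet, which overlap. Ctss, a lysosomal protease, and RT1-Ba, a class II chain, were the 2 called of 8 class II presentation genes, both lower (-0.34 ± 0.08, adjusted p = 0.029, and -0.24 ± 0.06, adjusted p = 0.032; 5 and 2 of 9 fits).

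**Figure D3:**
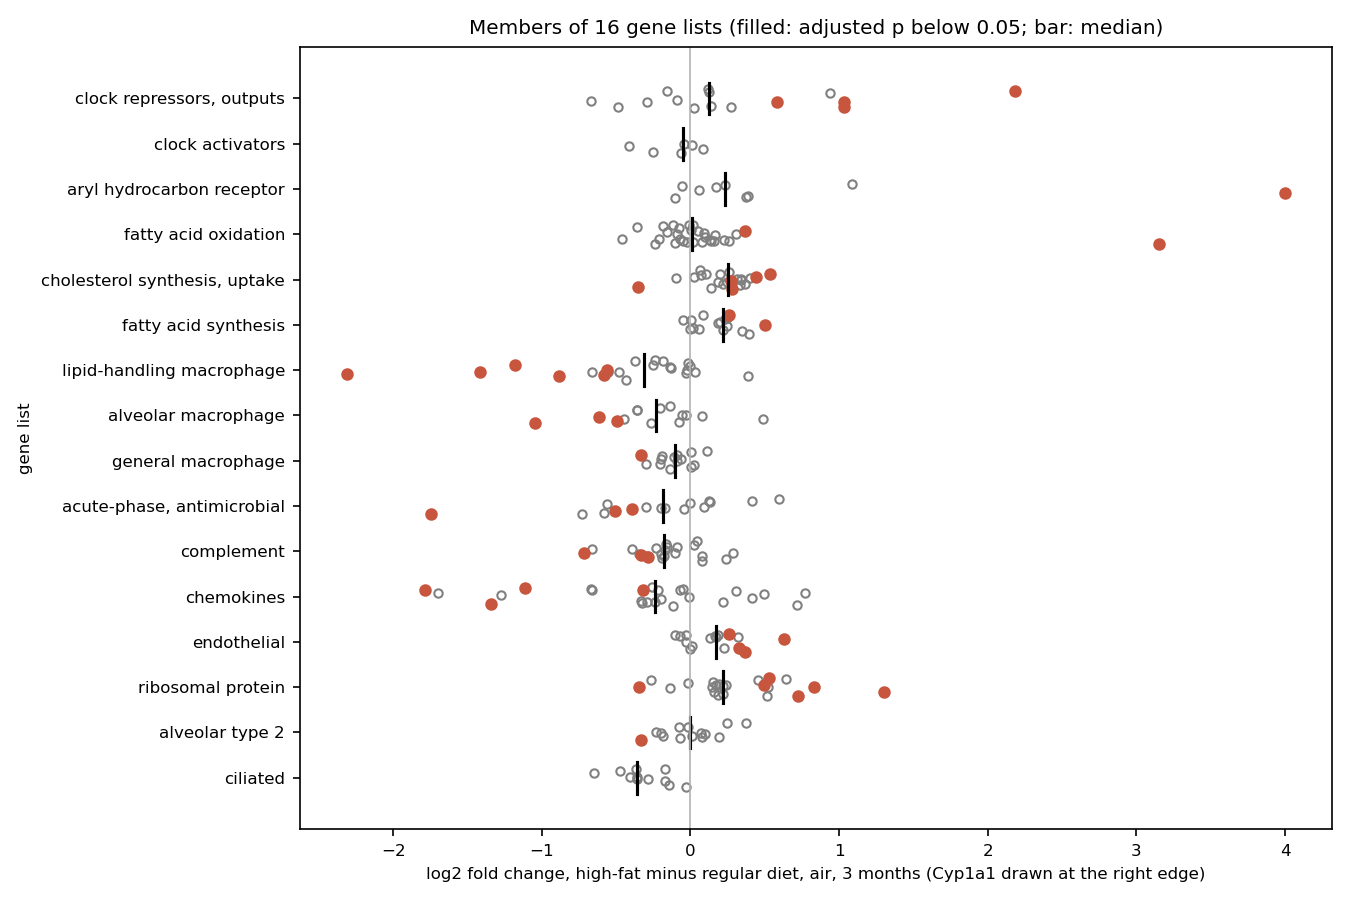
Log2 fold change, high-fat minus regular diet in air at 3 months (x axis), of the tested members of 16 gene lists (y axis); filled points passed adjusted p below 0.05, open points did not, and the bar is the list median. The lipid-handling macrophage list lies mostly left of 0, the cholesterol list mostly right of 0, and Cyp1a1 is drawn at the right edge although its value is 6.53.

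RNA of several defence genes was lower on the high-fat diet. Lcn2, the siderophore-binding lipocalin of neutrophils and epithelium, was at 9.46, 7.47, 10.1 and 5.11 CPM on the regular diet and 4.22, 2.11, 1.64, 1.83 and 1.67 CPM on the high-fat diet. For Lcn2 the log2 fold change was -1.75 ± 0.31 (adjusted p = 0.0066). High-fat rat 1 stood above the other 4 high-fat rats and still below every regular-diet rat. C3, the central complement protein, was at 425, 479, 549 and 581 CPM and 365, 318, 282, 325 and 259.8 CPM, with a clear gap between the diets. For C3 the log2 fold change was -0.71 ± 0.09 (adjusted p = 0.00049). The chitinase-like protein Chi3l1 (log2 fold change -0.51 ± 0.09, adjusted p = 0.0061), the immunoglobulin transporter Pigr of airway epithelium (-0.40 ± 0.08, adjusted p = 0.012) and the beta-defensin Defb4 (-0.63 ± 0.11, adjusted p = 0.0061) were lower too, with no overlap between diets in any of them. Noxo1, an organizer of an epithelial superoxide-producing oxidase, was at 13.9, 17.9, 13.9 and 16.2 CPM and 9.94, 8.77, 7.29, 7.61 and 7.53 CPM. For Noxo1 the log2 fold change was -0.91 ± 0.16 (adjusted p = 0.0069).

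By list, 3 of 16 tested acute-phase and antimicrobial genes were called lower and 0 higher (Lcn2, Chi3l1 and Pigr; median -0.185), and this count was 3 in all 9 fits, while the median ran from -0.254 without regular-diet rat 1 to -0.0623 without regular-diet rat 4. In the complement list 3 of 22 were lower and 0 higher (median -0.175): C3, C1qa, a chain of the first component, and Cd55, which limits complement on host cells. C1qa gave -0.33 ± 0.08, adjusted p = 0.037 and Cd55 -0.29 ± 0.08, adjusted p = 0.047, each called in 2 of 9 fits, so that C3 alone was called in every one. Cd177, a neutrophil surface protein, was the 1 neutrophil gene called of 10 tested, lower (log2 fold change -1.29 ± 0.31, adjusted p = 0.03, 3 of 9 fits), while its other 9 members had positive values. The list median was 0.291 and ran from 0.145 without high-fat rat 2 to 0.421 without regular-diet rat 3. The neutrophil list summed to 149 to 200 CPM on the regular diet and 110 to 283 CPM on the high-fat diet, which overlap.

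Chemokines had 4 calls lower and 0 higher among 25 tested (median -0.24, 19 negative). Cxcl1, a neutrophil attractant, was at 19.9, 33.8, 23.9 and 36.98 CPM and 13.9, 14.6, 18.95, 10.8 and 8.70 CPM, with the highest high-fat rat just below the lowest regular-diet rat. For Cxcl1 the log2 fold change was -1.11 ± 0.19 (adjusted p = 0.0066). Cxcl2, of the same family and function, was at 1.93, 3.42, 2.06 and 1.36 CPM and 0.544, 1.14, 0.729, 0.457 and 0.335 CPM, low but separate. For Cxcl2 the log2 fold change was -1.78 ± 0.36 (adjusted p = 0.014, 8 of 9 fits). Ccl6, a macrophage chemokine, gave -0.32 ± 0.07, adjusted p = 0.026 (4 of 9 fits). The related Ccl9 was at 8.50, 17.9, 6.70 and 22.8 CPM and 7.21, 2.60, 7.29, 5.94 and 4.69 CPM, where regular-diet rat 3 lay inside the high-fat range (log2 fold change -1.34 ± 0.34, adjusted p = 0.037, 3 of 9 fits). Over the 9 fits 1 to 4 chemokines were called lower with medians of -0.331 to -0.143 (the last without high-fat rat 3), and 3 with the ribosomal RNA covariate. Bcl2a1, a survival factor of myeloid cells, was at 37.7, 42.96, 36.6 and 49.9 CPM and 24.8, 28.8, 19.9, 22.7 and 29.0 CPM (log2 fold change -0.74 ± 0.13, adjusted p = 0.0061), and the cytokine Il18 at 24.1, 26.1, 24.4 and 29.8 CPM and 18.9, 19.5, 13.3, 13.5 and 16.1 CPM (log2 fold change -0.68 ± 0.13, adjusted p = 0.012, 8 of 9 fits), the only call among 16 inflammatory cytokines. Gbp2, a guanylate-binding protein, was the only call among 20 interferon-response genes (log2 fold change -0.42 ± 0.10, adjusted p = 0.022, 5 of 9 fits).

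Endothelial genes had 4 calls higher and 0 lower among 17 tested (median 0.173). Nos3, the endothelial nitric oxide synthase, was at 20.5, 17.3, 20.6 and 17.2 CPM and 31.98, 23.4, 33.3, 27.7 and 29.1 CPM, without overlap. For Nos3 the log2 fold change was 0.63 ± 0.12 (adjusted p = 0.01). Tie1, an endothelial receptor tyrosine kinase (log2 fold change 0.33 ± 0.07, adjusted p = 0.021, 5 of 9 fits), Plvap, which forms the diaphragms of capillary openings (0.36 ± 0.09, adjusted p = 0.04, 2 of 9 fits), and Ednrb, an endothelin receptor (0.26 ± 0.07, adjusted p = 0.047, 2 of 9 fits), rose by less. The list summed to 7114 to 7512 CPM on the regular diet and 7642 to 8764 CPM on the high-fat diet. It had 1 call without regular-diet rat 2, 3 or 4 or high-fat rat 3, 1 with the ribosomal RNA covariate, and 1 to 6 over the 9 fits.

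Outside the lists, Cytl1, a small secreted cytokine-like protein, had the smallest p-value after Cyp1a1. It was at 35.3, 32.4, 30.4 and 31.5 CPM on the regular diet and 61.0, 62.7, 69.1, 77.5 and 73.7 CPM on the high-fat diet, with both groups tight and far apart. For Cytl1 the log2 fold change was 1.09 ± 0.11 (adjusted p = 1.6e-05). Pxdc1 (log2 fold change 0.50 ± 0.07, adjusted p = 0.0012), the Notch-modifying glycosyltransferase Lfng (0.57 ± 0.09, adjusted p = 0.006), the smooth muscle phosphatase inhibitor Ppp1r14a (0.65 ± 0.11, adjusted p = 0.0061) and Spry4, an inhibitor of receptor tyrosine kinase signalling (0.54 ± 0.09, adjusted p = 0.0061), also rose. Galnt14, which starts O-linked glycosylation, was at 2.90, 3.42, 4.81 and 2.05 CPM and 7.21, 6.99, 5.28, 9.13 and 7.53 CPM. For Galnt14 the log2 fold change was 1.14 ± 0.21 (adjusted p = 0.0083). Aqp3, a channel for water and glycerol, was at 0.386, 1.25, 1.37 and 2.39 CPM and 4.63, 3.57, 4.56, 3.50 and 4.69 CPM, low but separate. For Aqp3 the log2 fold change was 1.59 ± 0.38 (adjusted p = 0.028, 4 of 9 fits). Optn, an autophagy receptor, was lower at 146, 169, 153 and 155 CPM and 121.9, 132.7, 120.4, 114.2 and 120.9 CPM (log2 fold change -0.36 ± 0.06, adjusted p = 0.0083), as was Rmdn2 (-0.44 ± 0.07, adjusted p = 0.0061).

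Ribosomal protein genes mostly leaned upwards. Of 22 tested, 5 were called higher and 1 lower, 18 were positive, and the median was 0.219. Rps2 was at 60.1, 54.6, 48.6 and 48.7 CPM and 77.4, 97.6, 86.2, 92.4 and 83.2 CPM (log2 fold change 0.72 ± 0.13, adjusted p = 0.0066). Rpl10a (0.83 ± 0.22, adjusted p = 0.041), Rpl13 (0.49 ± 0.13, adjusted p = 0.047) and Rpl7 (0.53 ± 0.12, adjusted p = 0.022) were called higher, in 2, 0 and 6 of 9 fits, and Rps23 was called lower (-0.35 ± 0.07, adjusted p = 0.019, 8 of 9 fits). All encode parts of the ribosome and have near-identical pseudogene copies, so their counts are uncertain. The ribosomal RNA share is given above; with it as a covariate 1 member was called higher (Rps2) and 1 lower (Rps23). In the splicing and RNA-binding list 0 of 26 were called higher and 2 lower (median -0.152), Tra2a (log2 fold change -0.34 ± 0.08, adjusted p = 0.027, 4 of 9 fits) and Hnrnph1 (-0.22 ± 0.06, adjusted p = 0.047, 0 of 9 fits), both of which steer exon choice.

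Lists of the lung's structural cells held few calls. Lamp3, a lamellar body protein, was the only call among 14 alveolar type 2 genes (log2 fold change -0.34 ± 0.09, adjusted p = 0.046, 2 of 9 fits), and the surfactant gene Sftpc was at 8262 ± 748 CPM (SD, n = 4) and 7816 ± 395 CPM (SD, n = 5) on the regular and high-fat diets (-0.08 ± 0.10, adjusted p = 0.7). No gene was called among 11 alveolar type 1, 21 extracellular matrix, 11 smooth muscle and pericyte, 11 ciliated, 10 club and goblet, 11 B and plasma cell, 16 T and natural killer cell, 21 oxidative stress, 11 hypoxia or 17 cell cycle genes, while 3, 2, 2, 1, 0, 0, 2, 4, 3 and 1 of them had an unadjusted p below 0.05 in the same edgeR fit. The matrix gene Col1a1 gave 0.25 ± 0.14, adjusted p = 0.31 and the club cell secretory gene Scgb1a1 -0.31 ± 0.18, adjusted p = 0.33. All 11 ciliated genes had negative values, with a median of -0.36 that ran from -0.51 without high-fat rat 1 to -0.098 without regular-diet rat 3, and their summed level was 999 to 1415 CPM on the regular diet and 896 to 1246 CPM on the high-fat diet, which overlap. Of the fibroblast genes 1 of 11 was called, Pdgfra, a growth factor receptor (log2 fold change 0.30 ± 0.08, adjusted p = 0.041, 1 of 9 fits). The chaperone genes Hspa1b (log2 fold change 0.80 ± 0.22, adjusted p = 0.047, 1 of 9 fits) and Dnajb1 (0.40 ± 0.09, adjusted p = 0.022, 4 of 9 fits) were the 2 called of 17 stress genes, and Jund (0.53 ± 0.12, adjusted p = 0.026, 5 of 9 fits) and Egr2 (-1.18 ± 0.30, adjusted p = 0.038, 1 of 9 fits), both transcription factors of the early response, rose and fell among 19.

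The same diets in silica-exposed rats of 3 months, none of them among the 9, gave 107 calls (0.702% of genes tested, 0.295% higher and 0.407% lower). Of the 251 genes higher in air, 92% had the same sign with silica and 15 were called higher there, which is 5.98% of the 251 and 33.3% of the 45 genes higher with silica. Of the 198 lower in air, 92.9% had the same sign and 22 were called lower, which is 11.1% of the 198 and 35.5% of the 62 lower with silica. No gene called in air was called in the opposite direction with silica. Over all 15234 genes tested the log2 fold changes in air and with silica had a Pearson correlation of 0.392. The share of all genes with the same sign was not counted. The median log2 fold change of the 251 was 0.372 in air and 0.133 with silica, and that of the 198 was -0.426 and -0.197. The genes were chosen by their values in air, which favours larger values there, and how much of the gap this choice gives was not tested. A test of the difference between the diet effects with silica and in air called 0 genes in edgeR, with 990 at an unadjusted p below 0.05, 0 by limma voom and 1, Mmp12, by DESeq2. Mmp12 was at 51.05 ± 5.06 CPM (SD, n = 5) and 49.3 ± 5.67 CPM (SD, n = 5) in silica rats on the regular and high-fat diets, a log2 fold change of -0.05 against -1.42 in air.

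In air rats of 9 months the same comparison gave 2325 calls (15.2% of genes tested, 8.16% higher and 7.06% lower), but there the ribosomal RNA share itself separated the diets, from 0.375% to 2.29% on the regular diet and from 4.62% to 7.19% on the high-fat diet. With that share in the model 1 gene, Cyp1a1, was called at 9 months, so at that time diet and ribosomal RNA share cannot be told apart for the other genes. Of the genes higher at 3 months 63.6% had the same sign at 9 months, with 57 called the same way and 9 the opposite way, and of the lower ones 73.7%, with 69 and 19. Over all 14971 genes tested at both times the Pearson correlation of the log2 fold changes was 0.25. Here too the share of all genes with the same sign was not counted. A difference between the diet effects at the 2 times was called for 819 genes, 5.2% of 15759. By direction, 2.53% were higher and 2.67% lower at 9 months. Of the 449, 153 were among them, 101 higher and 52 lower at 3 months. The 449 were chosen by their values at 3 months, which enter this difference. How much of the 153 this choice gives was not tested. With the ribosomal RNA covariate 0 such differences were called by edgeR, with 925 at an unadjusted p below 0.05. All 5 ribosomal protein genes higher at 3 months were among the 153: the diet effect of Rps2 at 9 months minus that at 3 months was -0.91 ± 0.19, adjusted p = 0.0036 and that of Rpl10a -0.97 ± 0.25, adjusted p = 0.016. Elovl5, higher at 3 months, was lower at 9 months (-0.28 ± 0.06, adjusted p = 0.0021), with a difference of -0.54 ± 0.08, adjusted p = 0.00011. Cytl1 was higher at both times but by less at 9 months (0.50 ± 0.08, adjusted p = 0.00013; difference -0.58 ± 0.14, adjusted p = 0.0092).

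**Figure D4:**
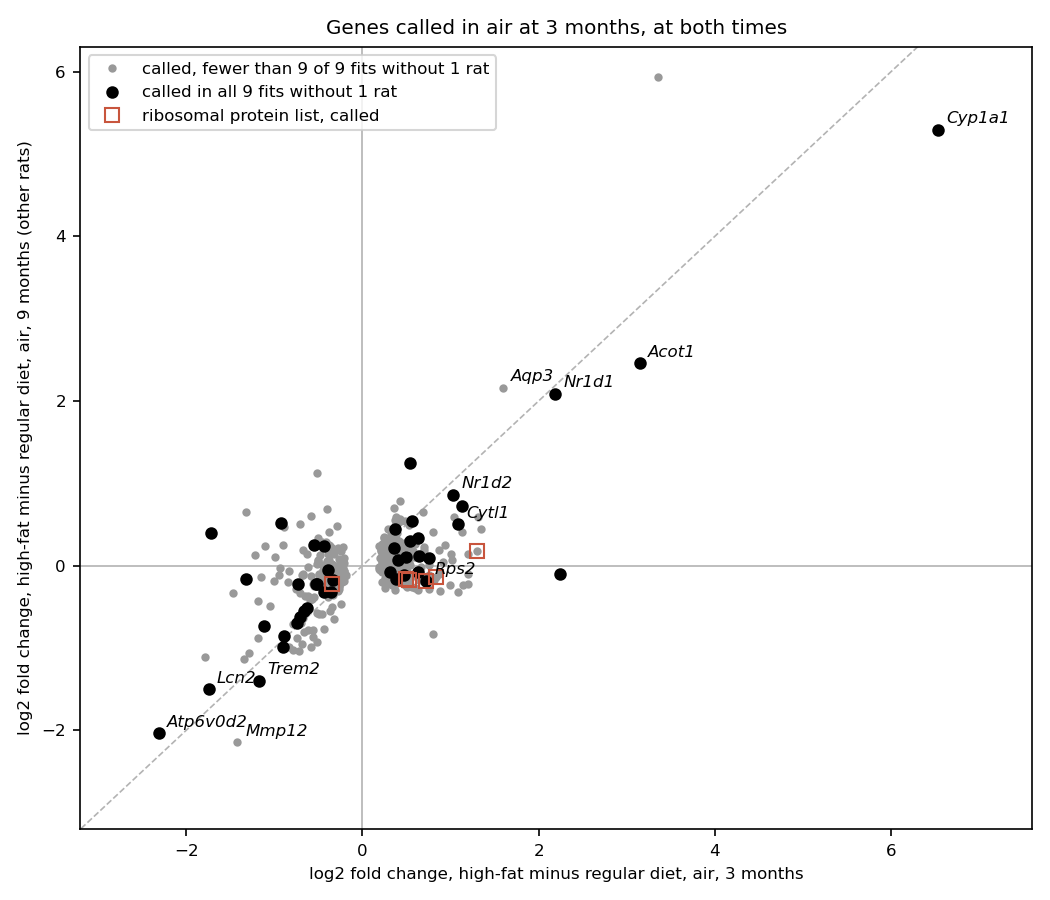
Log2 fold change, high-fat minus regular diet, of the genes called in air at 3 months, at 3 months (x axis) and in other rats at 9 months (y axis). Black points were called in all 9 fits without 1 rat, grey points in fewer, red squares are called ribosomal protein genes, and the dashed line marks equal values. Nr1d1, Trem2, Lcn2 and Atp6v0d2 lie near the dashed line, while 4 of the 5 ribosomal protein genes higher at 3 months lie below 0 at 9 months.

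There were 28 genes called the same way in all 3 comparisons, which share no rat: 9 higher (0.0601% of 14971 genes tested in both tables) and 19 lower (0.127%). The calls at 9 months are those without the ribosomal RNA covariate, with which Cyp1a1 alone was called at that time. Of the higher ones 8 are described here: Cyp1a1, Acot1, Nr1d1, Aqp3, Cytl1, Per3, Nr1d2 and Cpt1a. With silica their log2 fold changes ran from 0.32 (Cpt1a) to 5.95 (Cyp1a1), and at 9 months from 0.44 (Cpt1a) to 5.30 (Cyp1a1). Nr1d1 was higher by 2.186 in air at 3 months, 1.92 with silica and 2.09 at 9 months, where its levels ran from 6.03 to 13.2 CPM (median 8.10) on the regular diet and from 24.7 to 46.9 CPM (median 37.5) on the high-fat diet. Cyp1a1 at 9 months ran from 0 to 0.863 CPM (median 0.144) on the regular diet and from 8.97 to 15.4 CPM (median 10.98) on the high-fat diet, again without overlap.

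Among the 19 lower genes were 5 macrophage genes described above or closely tied to them (Trem2, Atp6v0d2, Msr1, Itgax and Cybb, the membrane subunit of the phagocyte oxidase), the chemokines Cxcl1, Ccl6 and Ccl9, and Lcn2, Noxo1, Il18, Bcl2a1 and Optn. Trem2 fell by 1.18 on the log2 scale in air at 3 months and had values of -0.79 with silica and -1.40 at 9 months, when it ran from 37.6 to 71.6 CPM (median 43.4) on the regular diet and from 15.1 to 25.4 CPM (median 16.9) on the high-fat diet. Lcn2 had -1.75, -0.76 and -1.500, and Atp6v0d2 -2.31, -0.96 and -2.03. The other named genes were Cela1, an elastase-like protease (-0.84, -0.73 and -0.99), the arginine transporter Slc7a2 (-0.51, -0.53 and -0.92), the integrin Itgb8 (-0.51, -0.45 and -0.58), Car8 and Rnd1, and LOC681325 has a placeholder symbol. Cybb, Cela1, Slc7a2, Itgb8, Car8, Rnd1 and LOC681325 were named after their values were seen. In that order, they were called in 7, 7, 6, 6, 5, 2 and 3 of the 9 fits without 1 air rat. Of these 27 genes, 13 were also called in every fit without 1 air rat: Cyp1a1, Acot1, Nr1d1, Cytl1, Nr1d2, Cpt1a, Optn, Bcl2a1, Noxo1, Cxcl1, Trem2, Lcn2 and Atp6v0d2.

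**Figure D5:**
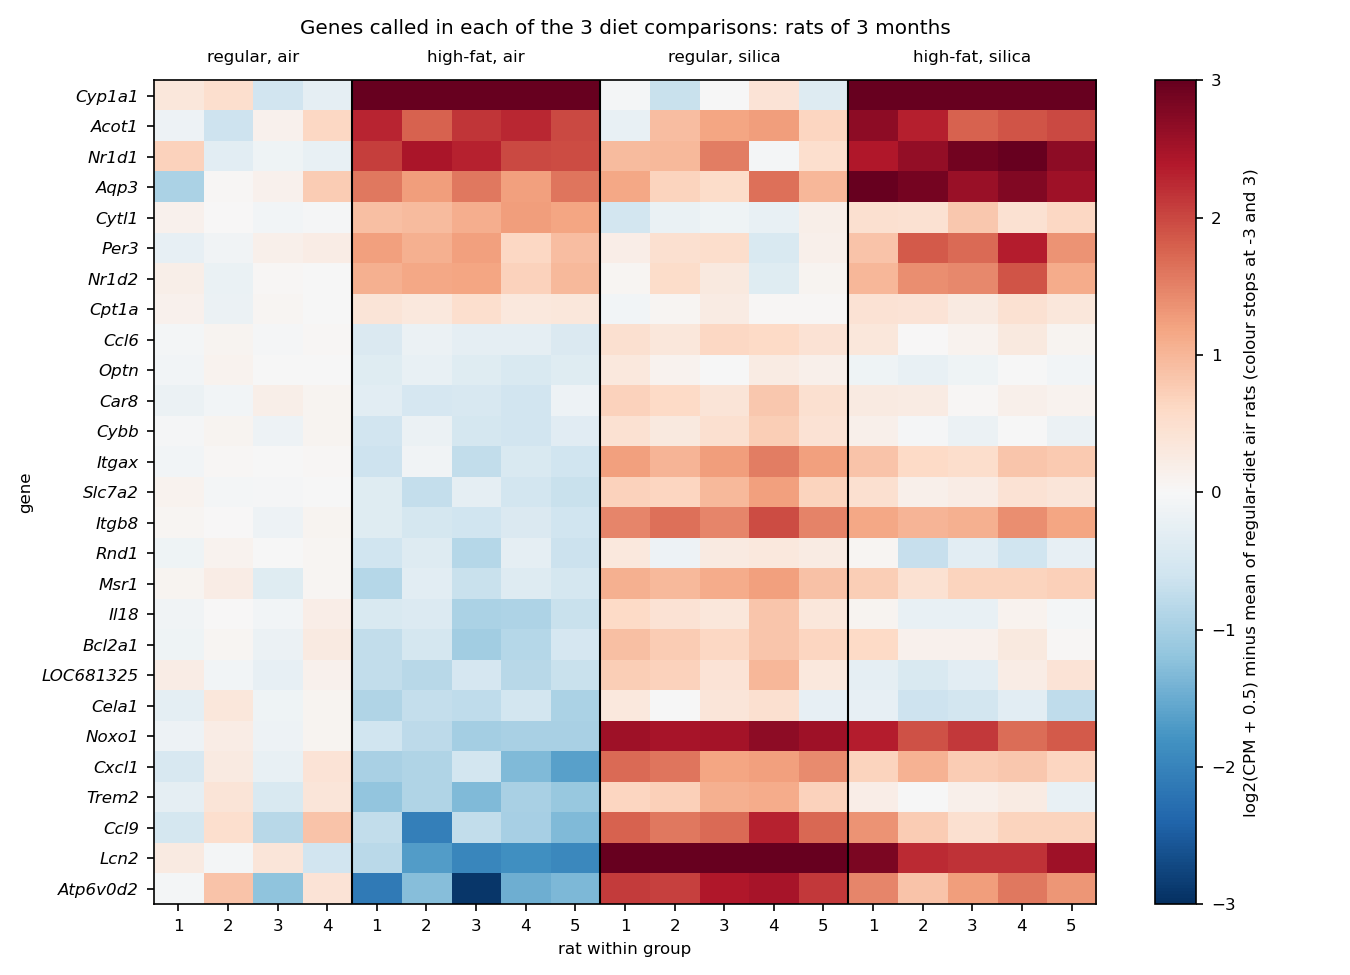
Each cell is log2(CPM + 0.5) of a gene (rows: 27 of the 28 genes called the same way in all 3 diet comparisons) in one rat of 3 months (columns: 4, 5, 5 and 5 rats of the 4 groups) minus the mean of the regular-diet air rats; colour stops at -3 and 3. In air the 8 upper genes are red and the 19 lower genes blue on the high-fat diet, and with silica the macrophage and defence genes start from higher levels.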

How the data were processed

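The authors deposited 1 table of raw read counts per gene symbol for each time point. The submitters' processing notes name TopHat2 2.0.9 with HTSeq 0.6.1, build Rnor_6.0, Trimmomatic 0.35 and SAMtools 0.1.19. Per the labels' protocols, libraries were stranded total RNA with ribosomal RNA depleted. The strand setting of the counting is not given in the sources used here, so overlapping genes and near-identical copies are uncertain.

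Counts of all 19 rats of 3 months entered 1 edgeR 4.0.16 quasi-likelihood fit (R 4.3.3, legacy=FALSE, TMM, filterByExpr, Benjamini-Hochberg adjustment over all genes). The 9-month table (23 rats) was fitted alike, and all 42 rats for the difference between times. Errors of log2 fold changes are standard errors from the F statistic. Alternatives were DESeq2 1.42.0, limma 3.58.1 voom with sample weights (limma voom throughout), and size factors by relative log expression (RLE). Further ones were no low-count filter, other sets of groups, legacy=TRUE, the ribosomal RNA covariate, and leaving out each air rat. Any 2 air rats differed by more than counting error (chi-square per degree of freedom at least 2.8).

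On simulated counts for the 3-month air comparison over 15234 genes, 56% of genes changed 1.5-fold, 76% of those changed 2-fold and 98% of those changed 3-fold were recovered, and 4.12% of calls were false. Each gene was simulated on its own, with no variation shared between the genes of a rat. These shares therefore do not measure the false share among the calls in the real rats. Named genes were the 15 largest rises and falls (log2 CPM averaging 1 or more, placeholder symbols left out), the 15 smallest p-values in each direction among genes called in all 9 fits without 1 air rat, the called members of each list (or the 4 with the smallest p), a panel of 25 genes and, for differences between diet effects, the 6 smallest adjusted p-values in each direction. Not every such gene is printed, and a few results that are counted in list totals are not reported here. The rats, the 43 gene lists and this rule were chosen with earlier results of these data known. Promoter windows are RefSeq's.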

Additional observations from a re-analysis of the deposited data

Results flagged for a closer look

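In 8 of 190 groups of values looked at (4.21%, where chance gives about 1 in 20), 1 rat stood far from the rest of its group by Dixon's gap test. High-fat rat 4 had the highest Cyp1a1, 86.8 CPM against 38.1 to 50.5 CPM in the other 4, the highest Fabp4, 13.2 CPM against 9.53 to 10.4 CPM, and the highest Cd177, 2.74 CPM against 1.09 to 1.46 CPM. Regular-diet rat 1 had the highest Nr1d1, 14.9 CPM against 7.16 to 8.24 CPM, and the lowest Cry1, 16.03 CPM against 17.2 to 17.3 CPM. High-fat rat 1 had the highest Lcn2, 4.22 CPM against 1.64 to 2.11 CPM, and high-fat rat 3 the highest Tie1, 319 CPM against 261 to 275 CPM. Regular-diet rat 4 had the highest Pigr, 1415 CPM against 1058 to 1090 CPM. In Fabp4, Cd177, Nr1d1, Cry1 and Lcn2 that rat was the one of its group nearest to the other diet, while in Cyp1a1, Tie1 and Pigr it was the farthest.

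The diet effect in air differed between 9 and 3 months for 21 of the 93 genes looked at (edgeR, adjusted p below 0.05), against 5.2% of all genes tested. Of the 93, 80 were called at 3 months, and most were named for values that enter this difference. How much of the count and of its direction this choice gives was not tested. The difference is given here as the log2 fold change at 9 months minus that at 3 months. Among genes called higher at 3 months it was -0.97 for Rpl10a, -0.91 for Rps2, -0.71 for Mrps24, -0.70 for Rpl7, -0.67 for Minpp1 and -0.66 for Rpl13. It was -0.58 for Cytl1, -0.54 for Ppp1r14a, -0.54 for Elovl5, -0.50 for Jund, -0.48 for Tef and -0.48 for Srebf1. It was -0.47 for Stard4, -0.40 for Pxdc1 and -0.36 for Dnajb1, while Spry4, also higher at 3 months, rose further (0.71). Of genes called lower at 3 months it was 0.80 for Anp32e, 0.55 for Tra2a and 0.24 for Hnrnph1, and of genes not called at 3 months 0.86 for Scgb1a1 and 0.65 for Npas2. When ribosomal RNA share was added to the model none of these differences was called. The times were also sequenced from different rats and stored in separate tables, which cannot be told apart from age.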

How the results depend on the processing

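Of the 93 genes looked at in the 3-month air comparison, none changed direction under any alternative that tested it, and of the 80 called ones 1 lost its call with RLE size factors, 5 without the low-count filter, 6 with DESeq2 and 34 with the ribosomal RNA covariate. Of the 13 genes not called in the main fit, Scd gained a call with DESeq2, limma voom and both other sets of groups, Arntl and Cry1 in the fit of the 2 groups only, and Cry1 in that of all 8. The 449 calls became 730 with DESeq2, 878 with limma voom (which includes all 449), 92 with the ribosomal RNA covariate, 761 in a fit of the 2 groups compared only and 850 in a fit of all 8 groups. Leaving out 1 air rat gave 63 to 530 calls, ribosomal RNA share differences of -0.397 to -0.172 percentage points and total count differences of 203066 to 684277. DESeq2 called 227 genes for the diet difference with silica and 1 for the difference between silica and air. The ribosomal RNA covariate left 1 call at 9 months and 0 for the difference between times. In air at 3 months it left no call in the lists of fatty acid synthesis, insulin and glucose, general macrophage, interferon-response and neutrophil genes. The alveolar type 2, fibroblast, early-response and splicing lists also had none. The complement, class II presentation and stress lists had 1 each, while the fatty acid oxidation, sterol efflux, acute-phase and inflammatory cytokine lists kept their counts. The causes were not tested. No paired analysis was possible because the animal tags are not shared between groups. With 4 and 5 rats and 5143424 to 7395252 counts each, changes under 2-fold were often missed in simulation, and genes near 1 CPM rest on few counts.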

Other observations

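Other genes called in every fit without 1 air rat belong to no list described above, and some were named after their values were seen. Minpp1, a phosphatase of inositol phosphates, was at 8.11, 8.56, 9.62 and 8.69 CPM on the regular diet and 15.7, 15.1, 14.4, 16.4 and 12.4 CPM on the high-fat diet (log2 fold change 0.76 ± 0.15, adjusted p = 0.012). Mrps24, a protein of the mitochondrial ribosome, was at 15.3, 16.8, 14.1 and 14.1 CPM and 21.5, 23.6, 23.5, 21.2 and 27.3 CPM (log2 fold change 0.63 ± 0.11, adjusted p = 0.0073). In both every high-fat rat lay above every regular-diet rat. Hebp1, a heme-binding protein, was lower at 22.02, 22.6, 20.3 and 21.98 CPM and 10.5, 15.1, 11.5, 15.8 and 12.6 CPM (log2 fold change -0.73 ± 0.14, adjusted p = 0.012), as were Anp32e, a histone chaperone (-0.55 ± 0.10, adjusted p = 0.007), and the mitochondrial flavoprotein Aifm1 (-0.33 ± 0.06, adjusted p = 0.012). None of these was called for diet with silica, and at 9 months Anp32e was called higher (0.26 ± 0.08, adjusted p = 0.029) and the other 4 were not called.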
